A study of Saccharomyces cerevisiae with 12 samples.

Results

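The genes described here are the 32 subunits of the yeast proteasome listed by open reading frame, together with RPN4 (YDL020C), the transcription factor that drives their expression. They were found by the open reading frame given for each probe set, which yielded 33 of 33 genes among the 5581 Saccharomyces cerevisiae genes with an unambiguous probe set on Affymetrix GeneChip Yeast Genome 2.0 arrays. The list was drawn up with earlier results of these arrays known, among them a shift of proteasome genes in euc1-K231R. The 12 arrays form 4 groups of 3 biological triplicates. Cells without EUC1 (euc1∆, strain MJK448) were set against wild type (Y0003) in experiment A. Cells whose Euc1 carries the K231R exchange (euc1-K231R, MJK612) were set against wild-type arrays of their own, again of Y0003, in experiment B. All cultures grew at 30°C in YP medium with 2% glucose to mid-log phase. The K231R allele is linked to a URA3 marker, so an effect of the exchange and an effect of the marker cannot be told apart. Each mutant is represented by a single strain.

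The proteasome degrades proteins that carry ubiquitin chains. Its core particle is a stack of alpha and beta rings with the proteolytic sites inside, and its regulatory particle consists of a base, in which a ring of RPT ATPases unfolds substrates, and a lid that removes the ubiquitin. Rpn4 binds a shared element in the promoters of proteasome genes and is itself a rapidly degraded proteasome substrate, so that cells with too little proteasome activity accumulate Rpn4 and make more subunits. Euc1 is a DNA-binding protein that is modified with SUMO on the exchanged lysine and marks ubiquitin hotspots, where the SUMO-targeted ubiquitin ligase Slx5/Slx8 acts on chromatin. The comparisons ask whether transcripts of the degradation machinery differ when Euc1 is missing or cannot be modified at this residue.

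Values are log2 RMA signals, on which a difference of 1 is a doubling of the signal. The value of EUC1 was 3.72, 3.88 and 3.64 in euc1∆, against 9.02, 9.15 and 9.14 in wild type, and probe sets for Schizosaccharomyces pombe, which have no target here, had a median of 3.95 and a 95th percentile of 5.30. In euc1-K231R, EUC1 was at 8.19, 8.15 and 8.12, against 9.18, 9.25 and 9.09 in wild type, and URA3 was at 11.41, 11.45 and 11.48, against 8.66, 8.73 and 8.57. The loss of EUC1 in euc1∆ and the high URA3 of the marked strain followed the labels. The point mutant also had less EUC1 signal than wild type, by -1.02 on the log2 scale (limma, adjusted p = 0.000181). This is transcript only, and the paper reports mildly higher Euc1 protein in cells with this exchange. Whether the lower EUC1 transcript bears on other genes was not tested. The 5 genes of mating type a (MFA1, MFA2, STE2, BAR1 and STE6) had a mean of 12.12 to 12.62 per array. The 3 genes of mating type alpha (MF(ALPHA)1, MF(ALPHA)2 and STE3) had a mean of 5.81 to 6.26. That mean is above the S. pombe 95th percentile, so not all 3 were at background. The a-type genes were thus the higher, as in cells of mating type a. The a-factor gene MFA2 was at 13.17 or above on every array and the alpha-factor gene MF(ALPHA)1 at 4.27 or below. None of these 8 genes was called between a mutant and its wild type. In RNA from whole cultures, fewer cells with a transcript and less of it per cell cannot be told apart. The experiments appear to have been normalised separately, so levels were compared only within an experiment.

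All 33 genes were strongly expressed, with values of 11.36 to 13.61 on every array, far above the S. pombe level. They were also measured tightly. The median SD between the replicates of a group was 0.035 in euc1∆, 0.035 in wild type of experiment A, 0.038 in euc1-K231R and 0.045 in wild type of experiment B, against 0.056, 0.050, 0.068 and 0.059 over all genes in these groups. No transcript of the proteasome passed the threshold in either mutant. At an adjusted p under 0.05 (limma, Benjamini-Hochberg over 5581 genes), 0 of 33 genes were called in euc1∆, where 0.125% of all genes were called, and 0 of 33 in euc1-K231R, where 0.896% were.

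In euc1∆ the differences from wild type lay between -0.081 for RPN8 and 0.072 for RPN10, and the median over the 33 genes was 0.013, against 0.0012 over all genes. The sign was positive for 21 genes and negative for 12 (63.6% positive, against 50.5% of all genes). No gene reached an unadjusted p under 0.05 in either direction, where 6.36% of all genes did so higher and 6% lower. The 95% intervals of all 33 genes together ran from -0.19 to 0.17, so that a change beyond a 12.1% decrease or a 12.5% increase lay outside the interval of every gene. The arrays of the groups stood apart in 3 genes. PRE8 was above wild type on all euc1∆ arrays (1 gene, 3.03% of the members, against 9.84% of all genes), and RPN2 and RPN8 were below it (6.06%, against 8.24%).

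In euc1-K231R the differences lay between -0.078 for PUP2 and 0.14 for PUP1, with a median of 0.033, against 0.0037 over all genes. The sign was positive for 25 genes and negative for 8 (75.8% positive, against 51.6% of all genes). An unadjusted p under 0.05 was reached by 5 genes, all higher in the mutant (RPN4, PUP1, PRE1, RPT3 and RPT6), which is 15.2% of the members, where 8.94% of all genes were higher. None of the 33 was lower by this rule, where 10.4% of all genes were. All euc1-K231R arrays lay above all wild-type arrays in 10 genes (30.3%, against 14% of all genes) and below them in 0 (against 11.8%). The list was chosen with such a shift in euc1-K231R already known, so these shares describe it again on the same arrays. The adjusted p of the 33 genes was 0.177 or higher. The intervals ran from -0.20 (RPN3) to 0.24 (PUP1), or from a 13.2% decrease to an 18.2% increase. The count of 5 depended on which arrays entered. Dropping wild-type or mutant replicate 2 left 0 genes, where 7.47% and 3.89% of all genes were higher. Dropping the first wild-type array left 1 (RPN4, against 4.34% of all genes). Dropping the last wild-type array or the first mutant array left RPN4 and PUP1, against 5.82% and 5.75% of all genes. Dropping mutant replicate 3 gave 6 genes, against 15.3% of all genes. After each array was centred on its median the count was 1, against 6.92% of all genes.

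**Figure D1:**
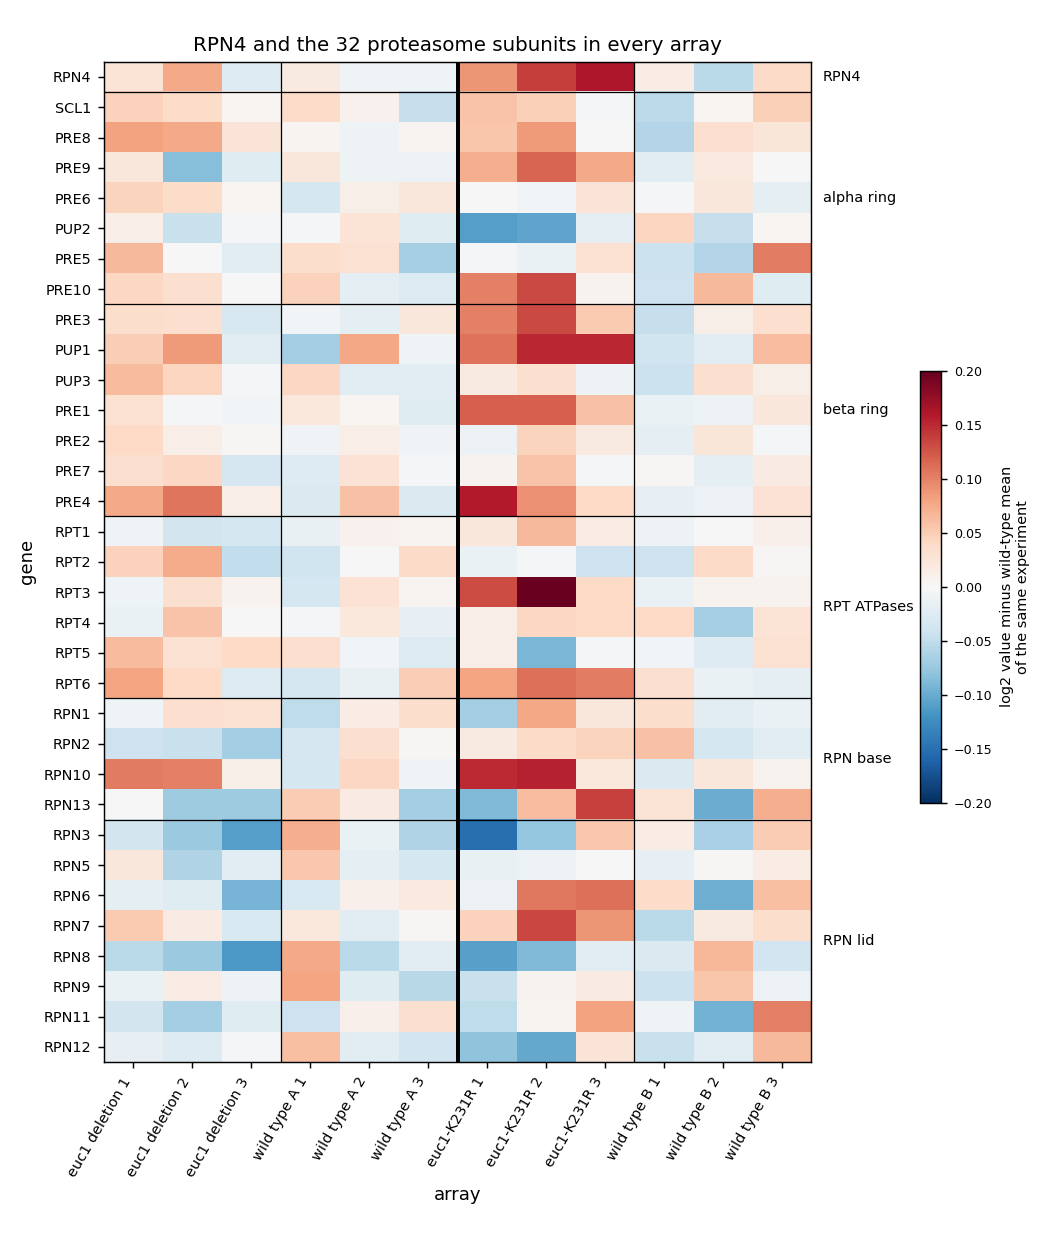
Each row is a gene and each column an array, and the colour gives the log2 value minus the wild-type mean of the same experiment, red for higher and blue for lower, with the scale ending at 0.20 in either direction. The euc1-K231R columns hold the highest value, 0.20 in RPT3, and the lowest, -0.15 in RPN3, and the lowest of the euc1∆ columns is -0.12 in RPN8.

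RPN4 itself was at 11.42, 11.47 and 11.36 in euc1∆, against 11.41, 11.38 and 11.38 in wild type. The groups overlapped, and the difference was 0.026 ± 0.037 (SE) with an adjusted p of 0.794. In euc1-K231R RPN4 was at 12.12, 12.17 and 12.20, against 12.05, 11.98 and 12.07 in wild type. Here all mutant arrays were above all wild-type arrays, by 0.13 ± 0.045 (SE) or 1.09-fold, with an interval of 0.024 to 0.23. Its adjusted p was 0.194 and did not pass. Leaving out any array of experiment B kept the difference between 0.10 and 0.15, with adjusted p from 0.201 to 0.485. Set against each other, the change in euc1∆ less that in euc1-K231R came to -0.10 ± 0.056 (SE), adjusted p = 0.371, so the effects were not shown to differ.

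The alpha ring forms the outer gate of the core particle. In euc1∆ its 7 genes had a median difference of 0.025 (all genes, 0.0012), with 5 positive and 2 negative. PRE8 (YML092C), which encodes alpha 2, was at 12.65, 12.65 and 12.60 in euc1∆, against 12.58, 12.56 and 12.58 in wild type (0.061 ± 0.032 SE, adjusted p = 0.491). The arrays did not overlap, but the 95% interval of -0.016 to 0.14 held 0. PRE6 (YOL038W), which encodes alpha 4, was at 13.35, 13.34 and 13.31 in euc1∆, against 13.27, 13.31 and 13.32 in wild type, and the groups overlapped. SCL1, PRE9, PUP2, PRE5 and PRE10 had differences from -0.029 (PRE9) to 0.029 (SCL1).

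In euc1-K231R the alpha ring had a median difference of 0.034 (all genes, 0.0037), with 6 positive and 1 negative. PRE9 (YGR135W), which encodes alpha 3, the only core subunit that yeast can do without, was at 12.77, 12.82 and 12.78 in the mutant, against 12.68, 12.72 and 12.70 in wild type. Its arrays did not overlap (0.088 ± 0.039 SE, adjusted p = 0.277). PUP2 (YGR253C), which encodes alpha 5, was on the other side, at 12.69, 12.70 and 12.78 in the mutant, against 12.85, 12.76 and 12.81 in wild type, with 1 mutant array inside the wild-type range (-0.078 ± 0.047 SE, adjusted p = 0.389). PRE10 had a difference of 0.080 and PRE8 of 0.048, and SCL1, PRE6 and PRE5 lay between 0.0054 and 0.034.

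The beta ring carries the proteolytic sites, with PRE3 (beta 1) cutting after acidic, PUP1 (beta 2) after basic and PRE2 (beta 5) after hydrophobic residues. All 7 of its genes had positive differences in both mutants, where 50.5% of all genes did in euc1∆ and 51.6% in euc1-K231R. In euc1∆ this depended on the arrays, as PRE1 and PRE7 fell to -0.0049 and -0.0012 when single arrays were left out. In euc1∆ the median was 0.019. PRE4 (YFR050C), which encodes beta 7, was at 12.54, 12.57 and 12.47 in euc1∆, against 12.43, 12.52 and 12.43 in wild type (0.065 ± 0.042 SE, adjusted p = 0.561). PUP3 (YER094C), which encodes beta 3, was at 12.97, 12.95 and 12.90, against 12.95, 12.88 and 12.88 (0.034 ± 0.036 SE, adjusted p = 0.719). The groups overlapped in all 7 genes, and the 3 proteolytic subunits PRE3, PUP1 and PRE2 had differences of 0.012, 0.038 and 0.019.

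In euc1-K231R the beta ring had a median difference of 0.095 (all genes, 0.0037). The mutant arrays stood above all wild-type arrays in 4 of its 7 genes, PRE3, PUP1, PRE1 and PRE4, against 14% of all genes. PUP1 (YOR157C) was at 12.71, 12.75 and 12.75 in the mutant, against 12.56, 12.58 and 12.66 in wild type, or 12.74 ± 0.024 and 12.60 ± 0.055 (SD, n = 3 each). The difference of 0.14 ± 0.045 (SE), or 1.10-fold, exceeded the spread within either group, and its adjusted p was 0.177. PRE1 (YER012W), which encodes beta 4, was at 13.07, 13.07 and 13.01, against 12.93, 12.94 and 12.97 (0.099 ± 0.041 SE, adjusted p = 0.244). PRE3 (YJL001W) was at 13.09, 13.13 and 13.05 in the mutant, against 12.95, 13.01 and 13.03 in wild type (0.095 ± 0.044 SE, adjusted p = 0.288). The genes of the other proteolytic site and of 2 structural subunits were close to wild type, with differences of 0.017 for PRE2, 0.013 for PUP3 and 0.020 for PRE7.

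**Figure D2:**
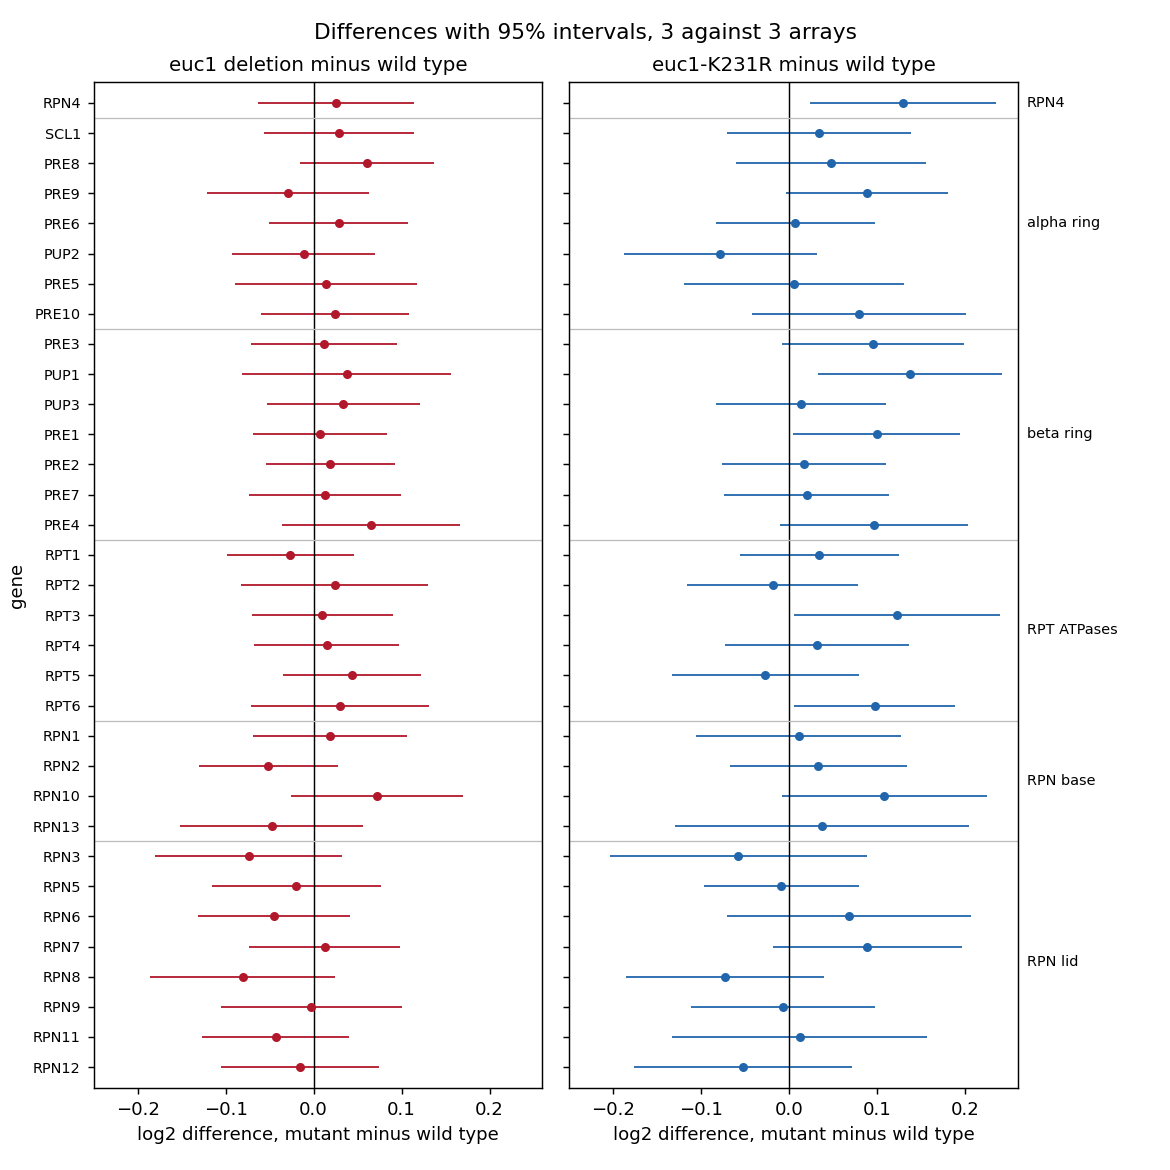
Points give the log2 difference of each gene, mutant minus wild type, and bars its 95% interval from limma, for euc1∆ on the left and euc1-K231R on the right (3 against 3 arrays each). All intervals of euc1∆ cross 0, and those of RPN4, PUP1, PRE1, RPT3 and RPT6 in euc1-K231R lie above it.

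The 6 RPT genes encode the ATPase ring of the base. In euc1∆ their median difference was 0.020, with only RPT1 negative. RPT5 (YOR117W) was at 12.35, 12.32 and 12.33 in euc1∆, against 12.32, 12.28 and 12.26 in wild type (0.044 ± 0.033 SE, adjusted p = 0.612). RPT1 (YKL145W) was at 13.21, 13.19 and 13.19, against 13.21, 13.23 and 13.23 (-0.026 ± 0.030 SE, adjusted p = 0.733). The groups overlapped in both genes, and RPT2, RPT3, RPT4 and RPT6 had differences from 0.010 to 0.030.

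In euc1-K231R the RPT genes had a median difference of 0.033 (all genes, 0.0037). The mutant arrays were above all wild-type arrays in RPT1, RPT3 and RPT6, against 14% of all genes. RPT6 (YGL048C) was at 12.83, 12.86 and 12.85 in the mutant, against 12.78, 12.74 and 12.73 in wild type (0.097 ± 0.039 SE, adjusted p = 0.243). RPT3 (YDR394W) was at 12.87, 12.94 and 12.78, against 12.73, 12.75 and 12.75 (0.12 ± 0.050 SE, adjusted p = 0.244). The mutant arrays of RPT3 were spread more widely than those of wild type, with an SD of 0.079 against 0.011. RPT1 differed by 0.034 and RPT4 by 0.032, while RPT2 and RPT5 were slightly negative at -0.019 and -0.027.

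**Figure D3:**
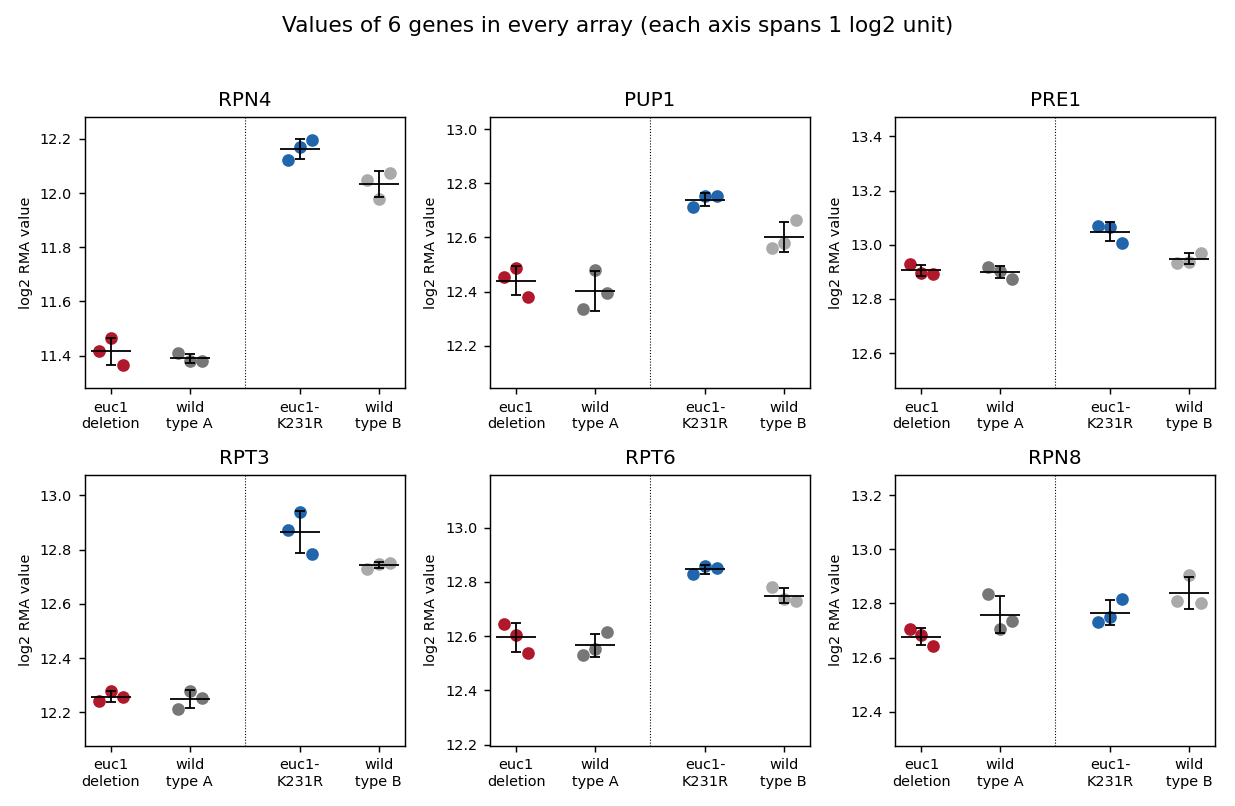
Points are single arrays, bars the mean and SD of 3 arrays, and each panel spans 1 log2 unit, for RPN4, PUP1, PRE1, RPT3, RPT6 and RPN8. The dotted line separates the experiments, which were taken as normalised apart. In the first 5 genes the euc1-K231R points lie above their wild type, and the euc1∆ points overlap theirs.

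Of the non-ATPase base subunits, RPN1 and RPN2 are large scaffolds, and RPN10 and RPN13 are ubiquitin receptors. RPN10 (YHR200W) was at 12.36, 12.36 and 12.27 in euc1∆, against 12.22, 12.30 and 12.25 in wild type (0.072 ± 0.041 SE, adjusted p = 0.511). Without euc1∆ replicate 3 its difference was 0.10, with an adjusted p of 0.2115. In euc1-K231R RPN10 was at 12.83, 12.83 and 12.70, against 12.65, 12.70 and 12.68 (0.11 ± 0.050 SE, adjusted p = 0.287). In both mutants replicates 1 and 2 of this receptor gene were high and replicate 3 lay inside the wild-type range. RPN2 (YIL075C) was at 12.57, 12.56 and 12.54 in euc1∆, against 12.57, 12.64 and 12.61 in wild type, with a difference of -0.051 ± 0.033 (SE). Every euc1∆ array was below wild type, but narrowly. The highest euc1∆ array deviated by -0.042 from the wild-type mean and the lowest wild-type array by -0.034. Leaving out single arrays of experiment A gave RPN2 adjusted p from 0.556 to 0.803 (limma). In euc1-K231R RPN2 was at 12.79, 12.81 and 12.82, against 12.83, 12.74 and 12.75, with overlapping groups. RPN1 differed by 0.018 in euc1∆ and 0.011 in euc1-K231R, and RPN13 by -0.048 and 0.037, with an SE of 0.072 in euc1-K231R.

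The lid was the class with mostly negative differences. In euc1∆ 7 of its 8 genes were negative, with a median of -0.031, and in euc1-K231R 5 of 8, with a median of -0.0081. On single arrays the median deviation of the lid genes was -0.017, -0.043 and -0.028 in euc1∆, against 0.057, -0.021 and -0.029 in wild type. Wild-type replicates 2 and 3 thus lay within the range of euc1∆, and replicate 1 above it. RPN8 (YOR261C), which encodes the partner of the deubiquitylase subunit Rpn11, was at 12.71, 12.68 and 12.64 in euc1∆, against 12.83, 12.71 and 12.74 in wild type (-0.081 ± 0.044 SE, adjusted p = 0.501). RPN3 (YER021W) was at 12.12, 12.09 and 12.05, against 12.23, 12.15 and 12.10 (-0.074 ± 0.045 SE, adjusted p = 0.535). The highest euc1∆ array of RPN8 lay below the lowest wild-type array by less than the printed decimals show, and the groups of RPN3 overlapped. RPN6 and RPN11 had differences of -0.045 and -0.043 in euc1∆, and RPN5, RPN7, RPN9 and RPN12 lay between -0.019 and 0.012.

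In euc1-K231R RPN7 (YPR108W), a lid scaffold subunit, was at 12.99, 13.08 and 13.04, against 12.89, 12.97 and 12.98 in wild type (0.089 ± 0.046 SE, adjusted p = 0.321). RPN8 was at 12.73, 12.75 and 12.82, against 12.81, 12.91 and 12.80 (-0.073 ± 0.048 SE, adjusted p = 0.431). RPN7 stood above wild type on every array, whereas RPN8 overlapped it. RPN6 differed by 0.068, RPN11 by 0.012, RPN5 and RPN9 by -0.0091 and -0.0070, and RPN3 and RPN12 by -0.058 and -0.052. The median SE of the lid genes in euc1-K231R was 0.051, against 0.041 for the beta ring.

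Whether the mutants differed in their effect was tested over all 12 arrays, as the change in euc1∆ less the change in euc1-K231R. None of the 33 genes was called, where 1.25% of all genes were. An unadjusted p under 0.05 was reached by 1 gene, PRE9 (-0.12 ± 0.051 SE, adjusted p = 0.277), where 16.8% of all genes reached it in either direction. The intervals of the 33 differences ran from -0.28 to 0.19. The mutants share no array, but each rests on wild-type arrays of its own, and the larger differences in euc1-K231R were thus not shown to differ from those in euc1∆.

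The 33 genes were also placed along the genome. They lie on 13 chromosomes. Only PRE4 and RPN12, and RPT4 and RPN8, are as close as 1 gene apart. In euc1-K231R PRE4 differed by 0.097 and RPN12 by -0.052, and RPT4 by 0.032 and RPN8 by -0.073, so the genes of each pair had differences of opposite sign.

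Proteasome assembly chaperones and associated proteins were taken as 16 further genes, chosen with earlier results known. None was called in either mutant. In euc1∆ 2 were higher and 1 lower at an unadjusted p under 0.05, where 6.36% of all genes were higher and 6% lower. NAS2 and NAS6, chaperones of base assembly, differed by 0.12 and 0.12, and ECM29, which tethers core and regulatory particle, by -0.12, with adjusted p of 0.344, 0.351 and 0.309. In euc1-K231R 2 were higher and 1 lower, where 8.94% of all genes were higher and 10.4% lower. POC4, a chaperone of alpha ring assembly, differed by 0.10 and BLM10, an alternative cap of the core particle, by 0.095, and TMC1, which acts with the proteasome under metalloid stress, by -0.15, with adjusted p of 0.229, 0.252 and 0.171. In euc1-K231R NAS2 differed by 0.093 (change in euc1∆ less that in euc1-K231R, 0.031 ± 0.074 SE), NAS6 by -0.0088 and ECM29 by 0.054.

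The known regulators of RPN4 are the transcription factor genes HSF1, PDR1, PDR3 and YAP1, the genes of the Ubr2, Rad6 and Mub1 complex that ubiquitylates Rpn4, and UBR1. None of these 8 was called, and at an unadjusted p under 0.05 euc1∆ had 1 higher and 2 lower (against 6.36% and 6% of all genes) and euc1-K231R 2 higher and 0 lower (against 8.94% and 10.4%). In euc1∆ PDR3 was at 9.78, 9.79 and 9.68, against 9.86, 9.97 and 9.87 in wild type (-0.15, adjusted p = 0.302), UBR2 differed by -0.22 (adjusted p = 0.362) and RAD6 by 0.090 (adjusted p = 0.378). The groups did not overlap in these genes, by less than the printed decimals show for UBR2, as in 9.84% of all genes with the mutant above wild type and 8.24% with it below. In euc1-K231R HSF1, which encodes the heat shock factor, was at 10.57, 10.59 and 10.40, against 10.30, 10.34 and 10.28 in wild type (0.21, adjusted p = 0.146). HSF1 passed the threshold without mutant replicate 3 (0.27, adjusted p = 0.0465), where 1.85% of all genes were called. It also passed with array weights (0.28, adjusted p = 0.00441), where 33.9% of all genes were called. Leaving out single arrays of experiment B gave it adjusted p from 0.0465 to 0.433. PDR1 differed by 0.10 (adjusted p = 0.220) and MUB1 by 0.096 (adjusted p = 0.339), and UBR2, low in euc1∆, differed by -0.018.

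Of 14 genes that supply ubiquitin or deliver substrates, none was called. In euc1∆ UFD4, a ubiquitin ligase, had a difference of -0.10 and the smallest p of the list (adjusted p = 0.290), followed by UBC5 at 0.12 and UFD1 at 0.075. At an unadjusted p under 0.05 euc1∆ had 0 higher and 1 lower, where 6.36% and 6% of all genes were. By the same rule euc1-K231R had 4 higher and 1 lower, where 8.94% and 10.4% of all genes were. DSK2, which shuttles substrates to the proteasome, differed by 0.18, UFD2, which extends ubiquitin chains, by 0.16, and SHP1, a cofactor of the Cdc48 segregase, by 0.16, with adjusted p of 0.168, 0.170 and 0.177. The polyubiquitin gene UBI4 was on the other side, at -0.15 (adjusted p = 0.234).

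Chaperone genes driven by Hsf1 were examined beside the proteasome because Hsf1 is also an activator of RPN4. None of 18 was called in either mutant. In euc1-K231R 7 were higher and 1 lower at an unadjusted p under 0.05, where 8.94% of all genes were higher and 10.4% lower, and the median over the list was 0.10, against 0.0037 over all genes. SIS1 differed by 0.27 and STI1 by 0.17, and the small heat shock gene HSP26 was on the other side at -0.38, with adjusted p of 0.146, 0.1498 and 0.146. In euc1∆ 1 was higher and 1 lower, where 6.36% and 6% of all genes were, and the median was 0.058, against 0.0012 over all genes. HSP26 differed by 0.37 (adjusted p = 0.203), SSE1 by -0.082 and SSA4 by 0.155. In this list the euc1∆ arrays were uneven. Its median deviation from wild type was 0.18, 0.14 and -0.12 on euc1∆ replicates 1, 2 and 3, against -0.057, 0.012 and 0.039 in wild type. Over all genes the medians of these euc1∆ arrays were 0.0041, 0.0033 and -0.00056.

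Among the euc1∆ arrays the beta ring was also lowest on replicate 3, with median deviations of 0.041, 0.041 and -0.0050 in euc1∆, against -0.0067, 0.013 and -0.0088 in wild type. On that replicate the beta ring lay within the wild-type range, whereas the chaperones lay below theirs. In euc1-K231R the beta ring stood at 0.10, 0.091 and 0.040, against -0.019, -0.0098 and 0.023 in wild type, and the chaperones at 0.11, 0.12 and 0.086, against -0.062, -0.0063 and 0.036. All mutant medians were above all wild-type medians in both lists, and likewise in the RPT ATPases, the assembly genes, the RPN4 regulators and the ubiquitin genes, whereas they overlapped over the alpha ring, the non-ATPase base subunits, all 33 genes and all genes tested. For the lid the same medians were -0.048, -0.0033 and 0.040, against -0.023, -0.0098 and 0.043, with full overlap. Whether the chaperone values bear on those of the proteasome was not tested. The median over the 33 genes was 0.013 in euc1∆ and 0.027 without replicate 3, and 0 or 1 gene (RPN10) had an unadjusted p under 0.05. Without that replicate 10.5% of all genes were higher by this rule.

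**Figure D4:**
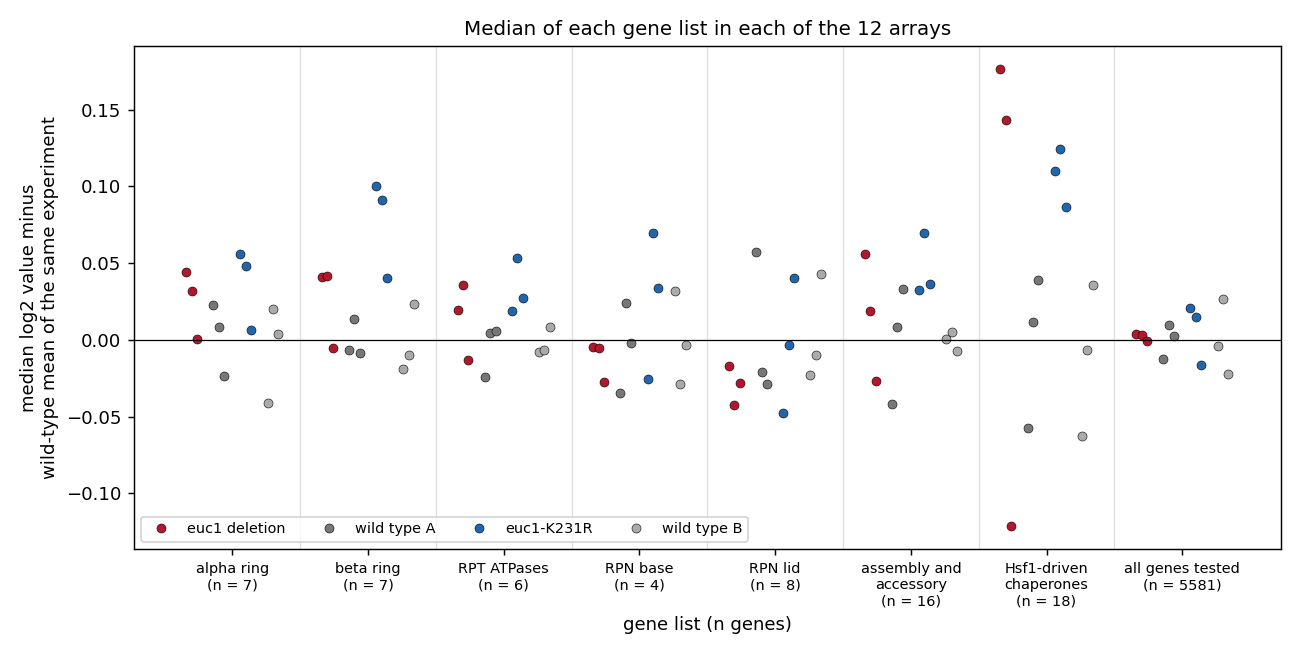
Each point is 1 array and gives the median, over the genes of a list, of the log2 value minus the wild-type mean of the same experiment; lists stand side by side with their number of genes. The euc1-K231R arrays lie above wild type in the beta ring, the RPT ATPases, the assembly genes and the chaperones and overlap it in the other lists shown, and euc1∆ replicate 3 lies at -0.12 in the chaperones, below the other arrays.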

How the data were processed

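Total RNA of 12 cultures was labelled from 300 ng and hybridised by the authors, who deposited log2 values made with RMA (background correction, quantile normalisation and probe summary). Per the labels, RMA and limma were used; the sources used here give no versions and no genome build. Arrays of different experiments had 0 identical values, against 42 to 216 within an experiment, so the experiments were taken as normalised separately. The authors' comparison tables, which hold fold changes and adjusted p-values, were used only for the open reading frame of each probe set.

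Of 5713 S. cerevisiae probe sets, 132 that match several transcripts were left out. Each mutant was compared with wild type of its own experiment (6 arrays) with limma 3.58.1 (lmFit and eBayes, R 4.3.3), two-sided, with Benjamini-Hochberg adjustment over 5581 genes. Intervals are 95% intervals of the moderated statistic. The difference of effects was fitted over 12 arrays. Replicates are biological triplicates per the labels, and 3 arrays a group limit the precision. Lists are described by counts and medians, without a test, and the shares and medians over all genes, which are the same for every list of a comparison, stand beside the first of them and beside each further list's counts at an unadjusted p. The members and lists were chosen with earlier results of these data known, among them a shift of proteasome genes in euc1-K231R. All 33 members are named; values on every array are given for RPN4 and the 2 members with the smallest p in each class, and for PRE3, chosen after its values were seen. For other lists, up to 3 genes with the smallest p are named. NAS2, NAS6 and ECM29 in euc1-K231R, UBR2 in euc1-K231R, UBI4, MFA2 and MF(ALPHA)1 were also added after their values were seen. Gene symbols were matched in a RefSeq table of assembly R64, which held 5564 of the genes. The fitting procedure was tested on simulated data. Figures were drawn with matplotlib in Python. A planned promoter motif search was not run here. Alternatives were another prior, quantile normalisation, median centring, a 12-array fit, a filter on dim genes, all probe sets, a replicate block, array weights and leaving out each array.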

Additional observations from a re-analysis of the deposited data

Results flagged for a closer look

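The effects of the mutants differed in 3 genes of the accompanying lists, by a limma test of the change in euc1∆ less that in euc1-K231R. None of the 33 proteasome genes was among them. HSP26 had a difference of 0.75 ± 0.14 (SE, adjusted p = 0.0328), which did not pass with a replicate block (0.114), over all probe sets (0.0836), or without any wild-type array of experiment A, euc1∆ replicate 1 or 2, or euc1-K231R replicate 2 or 3 (0.0514 to 0.0909). It was at 9.45, 9.33 and 9.18 in euc1∆, against 8.89, 8.94 and 9.01 in wild type, and at 9.55, 9.42 and 9.35 in euc1-K231R, against 9.64, 10.05 and 9.75 in wild type. EUC1 differed by -4.34 and URA3 by -2.78 between the effects, which are the deleted gene and the gene of the marker. Groups of 3 arrays were not tested for outlying arrays.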

How the results depend on the processing

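No member was called in euc1∆ under any of 14 alternatives, with adjusted p of 0.157 or higher. In euc1-K231R none was called under 13 alternatives, and with array weights 12 were, 11 higher and 1 lower, where 33.9% of all genes were called. That fit gave mutant replicate 2 a weight of 5.47 and mutant replicates 1 and 3 weights of 0.470 and 0.393, and its weight estimation stopped before convergence. For the difference between the mutants, array weights called 3 members (PRE9, PRE1 and RPT3), where 20.7% of all genes were called. The other alternatives called none of the members.

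The count of members with an unadjusted p under 0.05 that were higher in euc1-K231R was 5. It was 9 with a trended, robust prior (9.73% of all genes), 10 in the 12-array fit (11%) and 12 with array weights (26.9%). It was 1 after median centring (6.92%) and 2 over all probe sets (6.58% of these). When an array was left out it was from 0 to 6, where 3.89% to 15.3% of all genes were higher. With array weights 1 member was lower, and 3 were higher in euc1∆, where 12.6% of all genes were higher. In euc1∆ the count higher was 0 to 1 when an array was left out, where 4.01% to 10.5% of all genes were. The median member difference in euc1-K231R was 0.020 to 0.056 when an array was left out, and that of euc1∆ 0.0014 to 0.027.

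Replicate numbers did not pair the arrays, since deviations of same-numbered arrays correlated at -0.20, 0.11 and -0.21 in experiment A and -0.22, -0.087 and 0.30 in experiment B. With a replicate block 2 members were higher at an unadjusted p in euc1-K231R, where 8.12% of all genes were. By adjusted p 0 members were called in either mutant. Over all genes 1 and 27 were called in euc1∆ and euc1-K231R, against 7 and 50 without the block. The adjusted p of HSP26 in the difference ranged from 0.00199 to 0.114 over all alternatives. Counts over all genes called ranged from 1 to 42 in euc1∆ and from 11 to 1892 in euc1-K231R, and from 21 to 1157 for the difference, against 70.

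The sign of single members changed in 23 of 462 values in euc1∆ and 27 of 462 in euc1-K231R, none of them larger than 0.037 in size. The motif search and its alternative were not run. With 3 arrays a group, differences near 0.1 lay within reach of the spread between replicates.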
